A study of Mus musculus with 8 samples.

Results

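The receptors for monoamines and acetylcholine were compared between 5 mouse glioblastomas and 3 samples of normal mouse brain. The glioblastomas, called tumours 1 to 5, arose in mice given a lentiviral vector that expressed an activated Hras and silenced p53 with a short hairpin RNA. They were taken from mice at the clinical endpoint, and the fluorescent tumour was freed of normal brain under a microscope. The normal samples, called brains 1 to 3, are described no further than as brain, and the sources used here do not give the brain region, strain, age or sex of either group. RNA from whole pieces of tissue was sequenced, so in every result below fewer cells of a type and less RNA per cell cannot be told apart. The receptors were chosen by gene symbol, as the dopamine (Drd), serotonin (Htr), alpha and beta adrenergic (Adra and Adrb), muscarinic (Chrm) and nicotinic (Chrn) families, and no measured value entered the choice. They came to 49 genes of the 23523 features in the table: 5 dopamine, 14 serotonin, 6 alpha adrenergic, 3 beta adrenergic, 5 muscarinic and 16 nicotinic genes.

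Dopamine, serotonin, noradrenaline and acetylcholine are released by small groups of neurons whose axons spread widely through the brain, and the receptors on the receiving cells set what each transmitter does. Most of these receptors act through G proteins. The Drd1 class, the beta adrenergic receptors and some serotonin receptors raise cyclic AMP through Gs-type proteins. The Drd2 class, the alpha-2 receptors, Chrm2, Chrm4 and the Htr1 group lower it through Gi-type proteins. The alpha-1 receptors, Chrm1, Chrm3, Chrm5 and the Htr2 group activate phospholipase C through Gq-type proteins. The nicotinic receptors and the Htr3 receptors are instead ion channels built from 5 subunits, and the nicotinic subunits of skeletal muscle differ from those of neurons.

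Of the 49 receptor genes, 31 had enough fragments to be tested with edgeR, and at an adjusted p below 0.05 they divided into 4 that were higher in glioblastoma and 25 that were lower. Of all 14641 genes tested, 71.0% were called, 37.1% as higher and 33.9% as lower. The receptors called higher were 12.9% of those tested and the receptors called lower 80.6%. Their median log2 fold change was -3.58, against 0.06 for all genes tested, but 11 of the 31 cleared the low-count filter by their brain values alone and 2 by their tumour values alone, so that these had to differ. The 11 were Drd5, Htr1a, Htr1f, Htr3a, Htr4, Htr5a, Adra2c, Adrb1, Chrm2, Chrm5 and Chrna5, and the 2 were Chrnb1 and Htr2b. For these genes the calls and p-values given below are no separate evidence of a change. Among the genes that rose were the muscle-type nicotinic subunits Chrna1 and Chrnb1 and the serotonin receptor Htr2b. The 2 tested genes that did not pass were Adra1b and Htr1b. For 4 receptors every tumour was above every brain, and for 25 every tumour was below every brain, beside 36.1% and 34.5% of all genes tested.

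**Figure D1:**
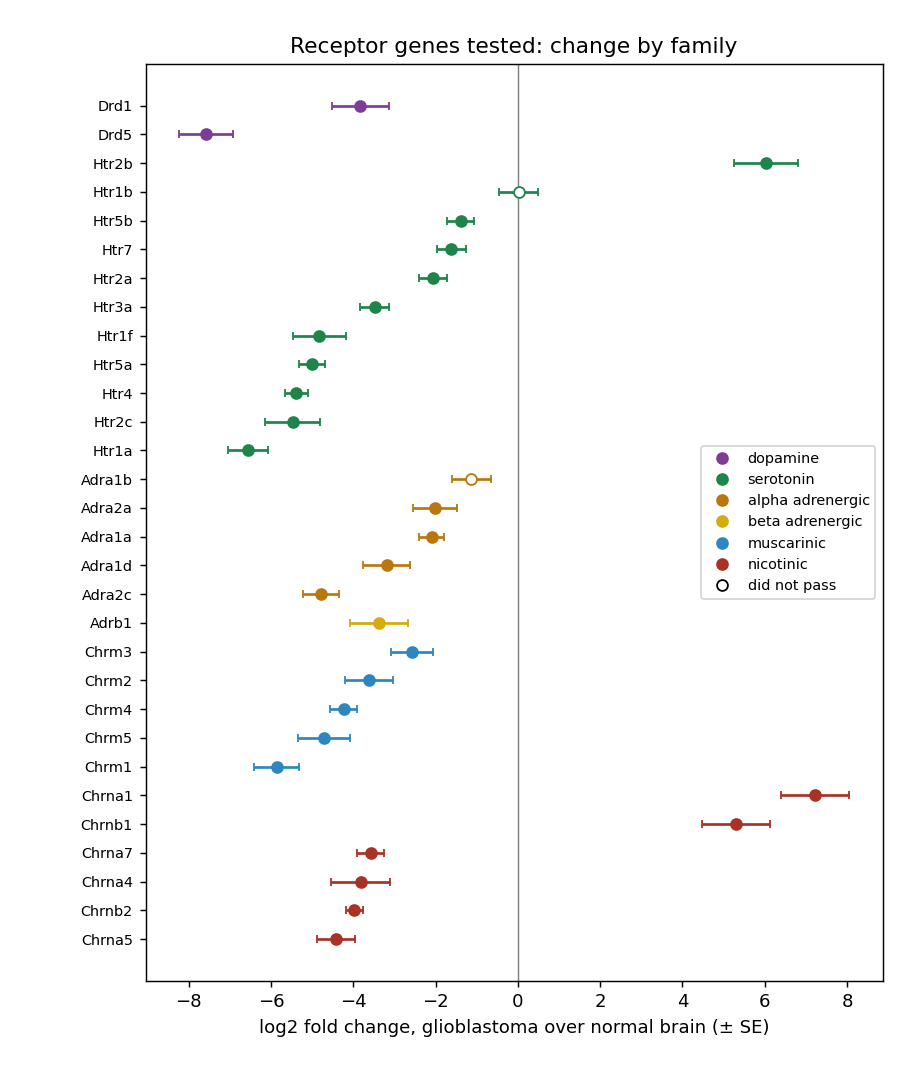
Log2 fold change of glioblastoma over normal brain with its standard error for tested receptor genes, grouped by family from top to bottom, with filled points for an adjusted p below 0.05 and open points for the rest. The genes right of 0 with filled points are Htr2b, Chrna1 and Chrnb1, with Chrna1 farthest right at 7.22 and Drd5 farthest left at -7.58.

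Marker genes show how far the samples as a whole differed. Markers of cortical excitatory neurons summed to between 13.7 and 41.0 CPM in the tumours and between 2124 and 2485 CPM in the brains, and all 6 were called lower. Markers of GABAergic interneurons summed to between 21.3 and 42.8 CPM in the tumours and between 775 and 896 CPM in the brains, again with 6 of 6 lower. Of the general neuronal markers 4 of 7 were called lower, and of the macrophage and monocyte markers 6 of 6 were called higher. Astrocyte markers summed to between 840.1 and 1901 CPM in the tumours and between 4963 and 5289 CPM in the brains. Of these 7 markers 4 were called lower and 3 did not pass. Endothelial markers summed to between 137 and 341 CPM in the tumours and between 133 and 163 CPM in the brains. Of these 6 markers 4 were called higher, 1 was called lower and 1 did not pass. The part of these cell types in the receptor results was not tested.

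**Figure D2:**
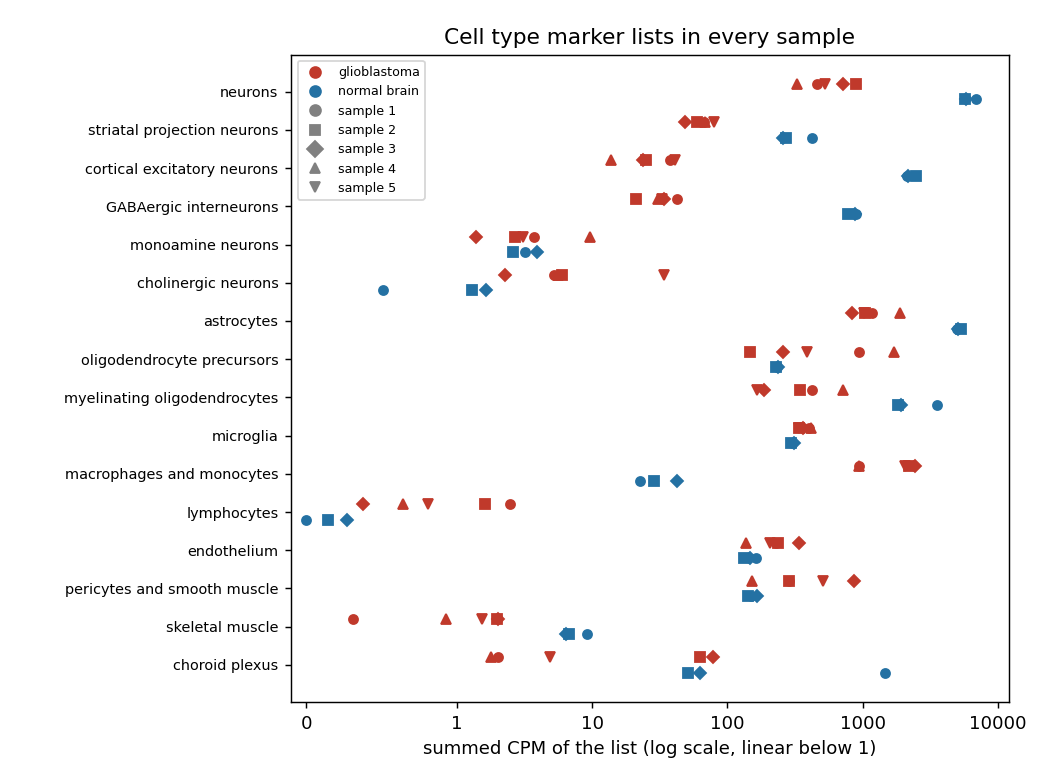
Summed CPM of 16 cell type marker lists in every sample, one list per row with glioblastoma drawn above normal brain and a marker shape per sample number, on an axis that is logarithmic above 1. The neuron lists of cortex, striatum and interneurons lie lower in glioblastoma and the macrophage list lies higher, while brain 1 stands apart from the other brains for choroid plexus, at 1455 CPM.

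The promoters of Chrna1, Chrnb1 and Htr2b are shown because these genes rose while most of the receptors fell, and that of Chrng, another muscle subunit, because it stayed near 0 fragments. They are the 250 bases before the start in the NCBI RefSeq table of the GRCm38.p6 build, which is not the build of the deposited table. Capitals mark the E-box, CANNTG, the letters bound by muscle and other basic helix-loop-helix factors, and the AP-1 letters TGANTCA. Both motifs were searched on both strands, and no marked stretch overlaps another. The Chrna1 window lies at chr2:73580339-73580588 on the minus strand, the Chrnb1 window at chr11:69795938-69796187 on the minus strand, the Chrng window at chr1:87205561-87205810 on the plus strand and the Htr2b window at chr1:86111981-86112230 on the minus strand.
Chrna1: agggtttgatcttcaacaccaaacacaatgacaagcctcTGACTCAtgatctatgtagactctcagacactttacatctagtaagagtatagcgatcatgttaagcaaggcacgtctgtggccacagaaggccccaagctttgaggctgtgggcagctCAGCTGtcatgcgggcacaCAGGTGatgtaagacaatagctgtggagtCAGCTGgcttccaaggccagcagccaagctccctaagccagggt
Chrnb1: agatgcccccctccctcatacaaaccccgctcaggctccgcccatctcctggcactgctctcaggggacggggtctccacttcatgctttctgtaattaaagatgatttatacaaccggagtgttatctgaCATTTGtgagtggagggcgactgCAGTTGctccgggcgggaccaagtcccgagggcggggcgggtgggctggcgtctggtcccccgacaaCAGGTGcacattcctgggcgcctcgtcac
Chrng: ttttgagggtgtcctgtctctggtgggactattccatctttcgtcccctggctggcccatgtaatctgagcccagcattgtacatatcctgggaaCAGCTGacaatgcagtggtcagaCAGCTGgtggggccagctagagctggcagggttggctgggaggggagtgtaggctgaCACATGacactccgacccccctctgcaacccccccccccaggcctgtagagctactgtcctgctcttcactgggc
Htr2b: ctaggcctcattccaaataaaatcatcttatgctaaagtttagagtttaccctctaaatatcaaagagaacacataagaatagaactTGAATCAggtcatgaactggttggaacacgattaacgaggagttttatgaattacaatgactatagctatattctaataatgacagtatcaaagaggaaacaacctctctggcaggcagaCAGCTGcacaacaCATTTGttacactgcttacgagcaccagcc

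The Chrna1 window held 3 E-boxes, beginning 92, 73 and 44 bases before the start, and 1 AP-1 match beginning 211 bases before it. The Chrnb1 window held 3 E-boxes, at 119, 96 and 29 bases, and no AP-1 match. The Chrng window also held 3, at 155, 132 and 75 bases. The Htr2b window held 2 E-boxes, at 43 and 30 bases, and 1 AP-1 match at 163 bases. Such matches are common: 66.2% of all 32851 windows of this length held an E-box, 12.2% held more than 2 and 6.75% held the AP-1 letters. Of the 49 receptor genes, 37 had 42 windows that were counted, of which 23 held an E-box and 4 an AP-1 match. Receptor windows on chromosome 18 were left out of these counts, but not out of the shares over all windows. A match is only a description of the letters and says nothing of whether a factor binds there.

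Chrna1 encodes the alpha subunit of the muscle acetylcholine receptor, where it holds most of the transmitter binding site, and it was the receptor gene with the largest rise. It had 290.4, 379, 335, 44.7 and 382 CPM (counts of fragments scaled to library size with TMM factors) in tumours 1 to 5, against 2.54, 1.59 and 1.64 CPM in brains 1 to 3. Every tumour lay far above every brain, and tumour 4 was well below the other tumours. The log2 fold change was 7.22 ± 0.83 (SE; edgeR, adjusted p = 8.0e-05), which placed it at rank 199 of all genes tested by size of rise. Chrnb1, the beta subunit of the same channel, had 10.1, 18.8, 19.4, 2.91 and 19.4 CPM in tumours 1 to 5, against 0.169, 0.289 and 0.545 CPM in brains 1 to 3. Its groups were also fully apart, with tumour 4 again the lowest of the tumours, and the log2 fold change was 5.30 ± 0.83 (SE; edgeR, adjusted p = 0.000462). The brain values are at or near the level of 3 fragments, which was 0.193 to 0.546 CPM across the libraries. Chrnb1 cleared the low-count filter by its tumour values alone.

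The remaining muscle subunits stayed near 0. Chrnd (delta) had 1 fragment in all tumours together and 0 in all brains, Chrne (epsilon, the adult form) had 4 and 0, and Chrng (gamma, the fetal form) had 1 and 0. None of these was tested and no fold is given. On the length-corrected FPKM scale, Chrna1 averaged 65.6 ± 32.3 in glioblastoma and 0.441 ± 0.121 in normal brain, and Chrnb1 averaged 6.83 ± 3.60 in glioblastoma and 0.163 ± 0.0940 in normal brain (SD, n = 5 and 3). The FPKM ratio of Chrna1 to Chrnb1 was 13.6, 9.56, 8.16, 7.26 and 9.32 in tumours 1 to 5, against 7.09, 2.60 and 1.42 in brains 1 to 3, where both genes had few fragments. The 6 markers of skeletal muscle summed to between 0.310 and 2.02 CPM in the tumours and between 6.41 and 9.13 CPM in the brains. Only Acta1 could be tested, and it was called lower, with 40 fragments in tumours and 133 in brains. Myh4 had 0 fragments in tumours and 12 in brains, and Ckm had none in any library. Myod1, Myog and Tnnt3 had 8, 3 and 13 fragments in tumours and 0, 0 and 3 in brains. Myod1 and Myog had at most 0.349 and 0.126 CPM in a tumour. Markers of pericytes and smooth muscle summed to 287, 284, 860.03, 152 and 507 CPM in tumours 1 to 5, against 150.4, 143 and 166 CPM in brains 1 to 3. Of these 6 markers 3 were called higher, 2 were called lower and 1 did not pass, and Acta2 alone had 657 CPM in tumour 3. Markers of macrophages and monocytes summed to 938, 2205, 2418, 936 and 2060 CPM in tumours 1 to 5, against 22.5, 28.7 and 42.7 CPM in brains 1 to 3. Tumour 4 had the lowest tumour value of both sums and of Chrna1, and tumour 1 was close to it for the macrophage sum. It was also the lowest tumour for the markers of endothelium (137 CPM), general neurons (329 CPM), cortical excitatory neurons (13.7 CPM) and choroid plexus (1.81 CPM). Single markers differed from their sums, as Rgs5 was lowest in tumour 3 and Lyz2 in tumour 1. The part of any of these cell types in the result was not tested.

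**Figure D3:**
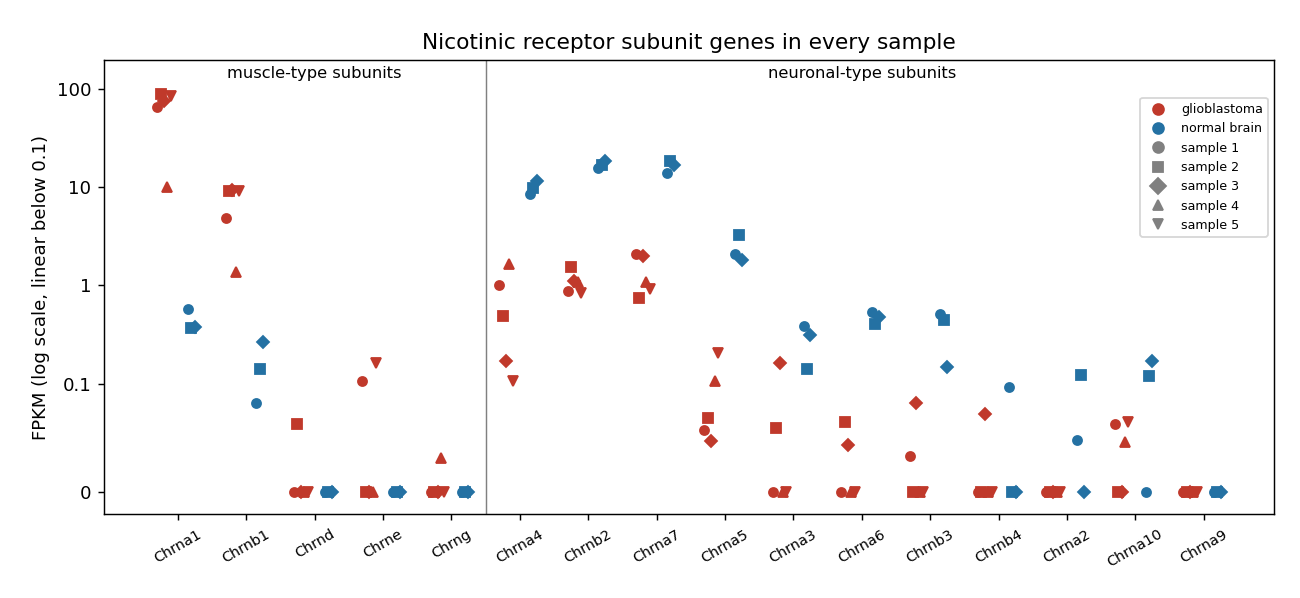
FPKM of the 16 nicotinic subunit genes in each sample, on an axis that is logarithmic above 0.1 and linear below it, with glioblastoma left of normal brain within each gene and a marker shape per sample number. Chrna1 and Chrnb1 stand high in glioblastoma, the other muscle-type subunits lie at or near 0 in both groups, and Chrna4, Chrnb2, Chrna7 and Chrna5 are lower in glioblastoma.

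The neuronal nicotinic subunits moved the other way, and all 4 that could be tested fell. Chrnb2, which with Chrna4 forms the commonest heteromeric nicotinic receptor of the brain, had 4.81, 8.30, 6.05, 6.06 and 4.69 CPM in tumours 1 to 5, against 86.8, 91.6 and 101 CPM in brains 1 to 3. The groups were far apart and the tumours close together, and the log2 fold change was -3.97 ± 0.20 (SE; edgeR, adjusted p = 9.18e-07). Chrna4 had 4.50, 2.16, 0.756, 7.57 and 0.485 CPM in tumours 1 to 5, against 38.6, 44.4 and 52.1 CPM in brains 1 to 3. The tumours varied more here, with tumours 4 and 1 the highest, and the log2 fold change was -3.82 ± 0.72 (SE; edgeR, adjusted p = 0.00135), or -4.62 without tumour 4. Chrna7, which forms a channel of identical subunits with high calcium permeability, had 4.19, 1.44, 4.03, 2.21 and 1.86 CPM in tumours 1 to 5, against 27.9, 37.2 and 33.3 CPM in brains 1 to 3. No tumour came near a brain, and the log2 fold change was -3.58 ± 0.34 (SE; edgeR, adjusted p = 2.65e-05). Chrna5, an accessory subunit that joins other subunits, was between 0.126 and 0.566 CPM in the tumours and between 4.91 and 8.80 CPM in the brains, and the log2 fold change was -4.41 ± 0.46 (SE; edgeR, adjusted p = 4.2e-05).

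The subunits that are typical of smaller sites were scarce in both groups. Chrna6, a subunit of midbrain dopamine neurons, had 2 fragments in all tumours and 27 in all brains, a level 33.1 times higher in normal brain (exact Poisson 95% interval 9.16 to 273, for counting error only). Chrnb3, its usual partner, had 4 fragments in tumours and 33 in brains. Chrna3 and Chrnb4, the pair of autonomic ganglia, had 5 and 2 fragments in tumours and 17 and 2 in brains. Chrna2 had 0 fragments in tumours and 4 in brains, Chrna10 had 5 in each group and Chrna9 none in any library. Chrna9 and Chrna10 are known from the hair cells of the inner ear.

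Chrna1 filled most of the summed level of the nicotinic family in the tumours. The summed FPKM was 75.5, 101, 89.7, 15.4 and 97.5 in tumours 1 to 5, against 42.6, 50.5 and 50.5 in brains 1 to 3, so that tumour 4 alone lay below the brains. Without Chrna1 and Chrnb1 the sum was 3.44 ± 0.786 in glioblastoma and 47.2 ± 4.59 in normal brain (SD, n = 5 and 3). Chrna1 made up 88.0%, 87.8%, 85.4%, 65.1% and 88.2% of the nicotinic FPKM in tumours 1 to 5, against 1.36%, 0.725% and 0.748% in brains 1 to 3. In 4 of the 5 tumours it held between 61.7% and 71.6% of the FPKM of all 49 receptor genes, and in tumour 4 it held 22.7%.

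**Figure D4:**
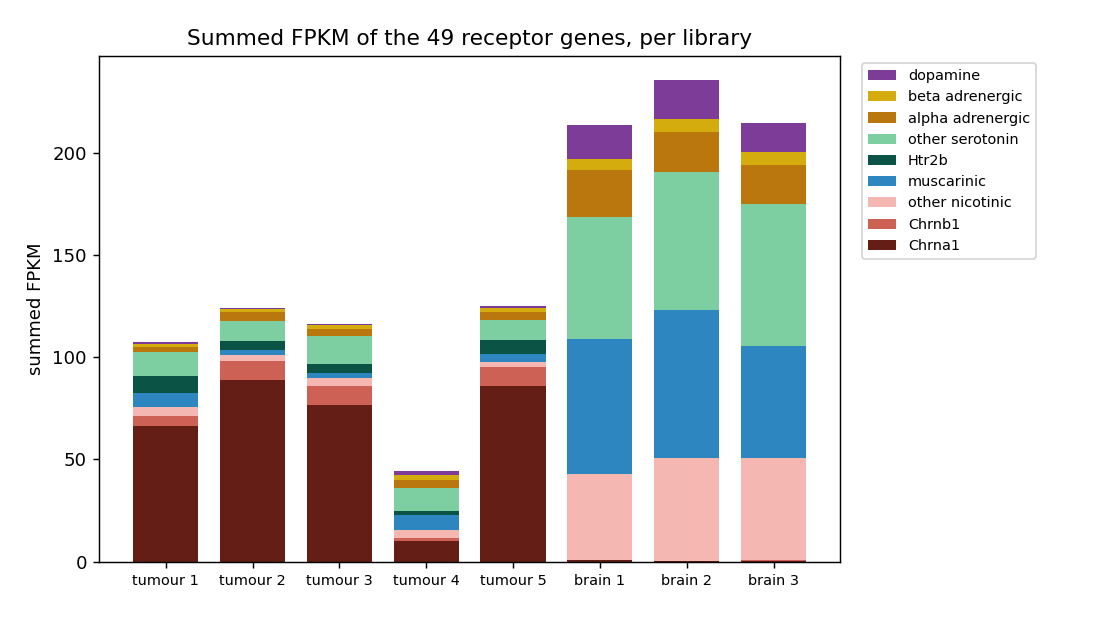
Stacked bars of the summed FPKM of the 49 receptor genes in each library, tumours left and brains right, split by family with Chrna1, Chrnb1 and Htr2b shown apart. The tumours reach between 44.1 and 125 FPKM and are mostly Chrna1, while the brains reach between 214 and 235 FPKM and are spread over all 6 families.

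All 5 muscarinic receptors fell. Chrm1, the Gq-coupled receptor that is abundant in cortex and hippocampus, had 4.96, 0.902, 1.01, 5.59 and 2.18 CPM in tumours 1 to 5, against 165, 211 and 155 CPM in brains 1 to 3. The groups were widely apart, and among the tumours 1 and 4 were the highest. Its log2 fold change was -5.86 ± 0.55 (SE; edgeR, adjusted p = 2.42e-05). Chrm3, another Gq-coupled receptor, had 17.1, 3.07, 4.29, 16.2 and 8.48 CPM in tumours 1 to 5, against 65.5, 64.1 and 46.5 CPM in brains 1 to 3. Tumours 1 and 4 were again the highest, without reaching the brains, and the log2 fold change was -2.56 ± 0.51 (SE; edgeR, adjusted p = 0.0019). Chrm4, the Gi-coupled receptor of the striatum, had 1.09, 1.62, 1.89, 0.641 and 1.37 CPM in tumours 1 to 5, against 27.2, 26.3 and 19.6 CPM in brains 1 to 3. Here tumour 4 was the lowest, and the log2 fold change was -4.23 ± 0.33 (SE; edgeR, adjusted p = 7.99e-06).

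Chrm5, a Gq-coupled receptor known from midbrain dopamine neurons, had 0.155, 0.180, 0, 0.175 and 0.0808 CPM in tumours 1 to 5, against 1.52, 5.63 and 3.27 CPM in brains 1 to 3. The tumours had 1, 1, 0, 3 and 1 fragments, and the log2 fold change was -4.71 ± 0.62 (SE; edgeR, adjusted p = 0.000165). Chrm2, the Gi-coupled receptor that limits acetylcholine release, fell by 3.62 ± 0.58 on the log2 scale (SE; edgeR, adjusted p = 0.000513), and the change was -4.37 without tumour 4. By FPKM, Chrm3 held 63.2 ± 11.3% of the muscarinic sum in glioblastoma and 28.9 ± 2.29% in normal brain, and Chrm1 held 8.91 ± 2.27% in glioblastoma and 43.2 ± 3.51% in normal brain (SD, n = 5 and 3). The muscarinic sum itself was 4.59 ± 2.52 FPKM in glioblastoma and 64.5 ± 8.76 FPKM in normal brain (SD, n = 5 and 3).

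Among the dopamine receptors, both tested genes fell, and both belong to the Gs-coupled Drd1 class. Drd1, the main receptor of the direct striatal pathway, had 3.72, 0.541, 0.378, 6.58 and 2.18 CPM in tumours 1 to 5, against 38.6, 44.4 and 38.2 CPM in brains 1 to 3. The brains lay close together and above every tumour, and tumours 4 and 1 were the highest of the tumours. The log2 fold change was -3.83 ± 0.69 (SE; edgeR, adjusted p = 0.00104), or -4.52 without tumour 4. Drd5, the second member of the class, had 2 fragments in all tumours and 214 in all brains, at 10.5, 15.0 and 6.54 CPM in brains 1 to 3. With so few tumour fragments the ratio of normal brain to glioblastoma, 262, has a counting interval of 72.6 to 2166 (exact Poisson, 95%), and the fitted log2 fold change was -7.58 ± 0.65 (SE; edgeR, adjusted p = 1.35e-05). By size of fall Drd5 was at rank 7 of all genes tested, and Drd1 was at rank 894.

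The Gi-coupled Drd2 class was scarce in both groups. Drd2, the receptor of the indirect striatal pathway, had 0, 0, 0.126, 0.0582 and 0.0808 CPM in tumours 1 to 5, against 2.71, 1.44 and 0.954 CPM in brains 1 to 3. That is 3 fragments against 33, a level 27.0 times higher in normal brain (exact Poisson 95% interval 9.23 to 131), and the gene was below the filter for the test. Drd3 had 0 fragments in tumours and 1 in brains, and Drd4 had 4 in tumours and 2 in brains. Marker genes of striatal projection neurons, the main cells with Drd1 and Drd2, summed to between 48.8 and 79.9 CPM in the tumours and between 257 and 422 CPM in the brains, and 5 of the 7 were called lower. The part of these cells in the dopamine receptor result was not tested.

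In the serotonin family 9 of the 11 tested receptors fell, 1 rose and 1 did not pass. Htr2b, a Gq-coupled receptor best known from heart valves, gut and smooth muscle, was the one that rose. It had 16.1, 9.38, 9.45, 3.84 and 14.2 CPM in tumours 1 to 5, against 0, 0.289 and 0.136 CPM in brains 1 to 3. All tumours were above all brains, and tumour 4 was the lowest tumour. The macrophage marker sums and the pericyte and smooth muscle marker sums are given above, and the part of these cells in the Htr2b result was not tested. The counts behind the rise were 473 fragments in tumours and 3 in brains, a ratio of 64.3 (exact Poisson 95% interval 22.0 to 312). The log2 fold change was 6.03 ± 0.78 (SE; edgeR, adjusted p = 0.000148), or 6.90 without brain 2. Htr2b cleared the low-count filter by its tumour values alone. Htr2b held 40.8%, 33.6%, 26.5%, 14.5% and 41.9% of the serotonin receptor FPKM in tumours 1 to 5, against 0%, 0.217% and 0.0998% in brains 1 to 3. The family as a whole summed to 16.5 ± 2.73 FPKM in glioblastoma and 65.5 ± 5.09 FPKM in normal brain (SD, n = 5 and 3).

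The other Htr2 receptors, which share the Gq pathway, fell. Htr2a, the cortical receptor on which serotonergic hallucinogens act, had 7.76, 11.5, 19.5, 6.81 and 7.84 CPM in tumours 1 to 5, against 48.7, 46.0 and 38.4 CPM in brains 1 to 3. It fell less than most of the family, with tumour 3 the highest tumour and still below every brain, and its log2 fold change was -2.06 ± 0.34 (SE; edgeR, adjusted p = 0.000618). Htr2c, found in neurons and in the choroid plexus, had 0.310, 1.44, 2.27, 0.175 and 2.26 CPM in tumours 1 to 5, against 42.6, 46.0 and 82.2 CPM in brains 1 to 3. The groups were far apart, brain 3 being the highest, and the log2 fold change was -5.47 ± 0.67 (SE; edgeR, adjusted p = 0.000107). Choroid plexus markers summed to 2.02, 62.6, 78.4, 1.81 and 4.93 CPM in tumours 1 to 5, against 1455, 50.9 and 62.7 CPM in brains 1 to 3. Brain 1 was highest for these markers and lowest of the brains for Htr2c. The part of these cells in the Htr2c result was not tested.

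Htr1a, the Gi-coupled receptor that acts as the autoreceptor of serotonin neurons and is also found on hippocampal and cortical neurons, had 0.776, 0, 0.504, 0.233 and 0.323 CPM in tumours 1 to 5, against 24.9, 43.9 and 34.8 CPM in brains 1 to 3. The tumour values are close to the level of 3 fragments, and the log2 fold change was -6.55 ± 0.48 (SE; edgeR, adjusted p = 6.71e-06), at rank 46 by size of fall. Htr1b, the Gi-coupled receptor of axon terminals, had 5.74, 1.62, 2.27, 6.35 and 2.99 CPM in tumours 1 to 5, against 3.04, 4.18 and 4.09 CPM in brains 1 to 3. Tumours 1 and 4 lay above the brains and the others below them, so the groups overlapped. The log2 fold change was 0.02 ± 0.47 (SE; 95% interval -1.12 to 1.17; edgeR, adjusted p = 0.968), a range that includes changes of more than 1 on the log2 scale either way. Its sign turned under 8 of 19 other settings.

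The 6 other tested serotonin receptors fell by between 1.39 and 5.38 on the log2 scale. The Gs-coupled Htr4 changed by -5.38 ± 0.28, Htr5a by -5.00 ± 0.31 and the Gi-coupled Htr1f by -4.82 ± 0.65, or -5.46 without tumour 5 (SE; edgeR, adjusted p = 1.19e-06, 2.81e-06 and 0.000198). Htr3a, the subunit that every Htr3 channel needs, changed by -3.48 ± 0.35, the Gs-coupled Htr7 by -1.62 ± 0.35 and Htr5b, a pseudogene in humans, by -1.39 ± 0.32 (SE; edgeR, adjusted p = 3.52e-05, 0.00283 and 0.00414). Each of these had all tumours below all brains. Of those not tested, Htr1d had 9 fragments in tumours and 17 in brains, and Htr3b, the partner of Htr3a, had 3 and 0. Htr6, a Gs-coupled receptor, had 3 fragments in tumours and 12 in brains, a level 9.81 times higher in normal brain (exact Poisson 95% interval 3.36 to 47.6).

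**Figure D5:**
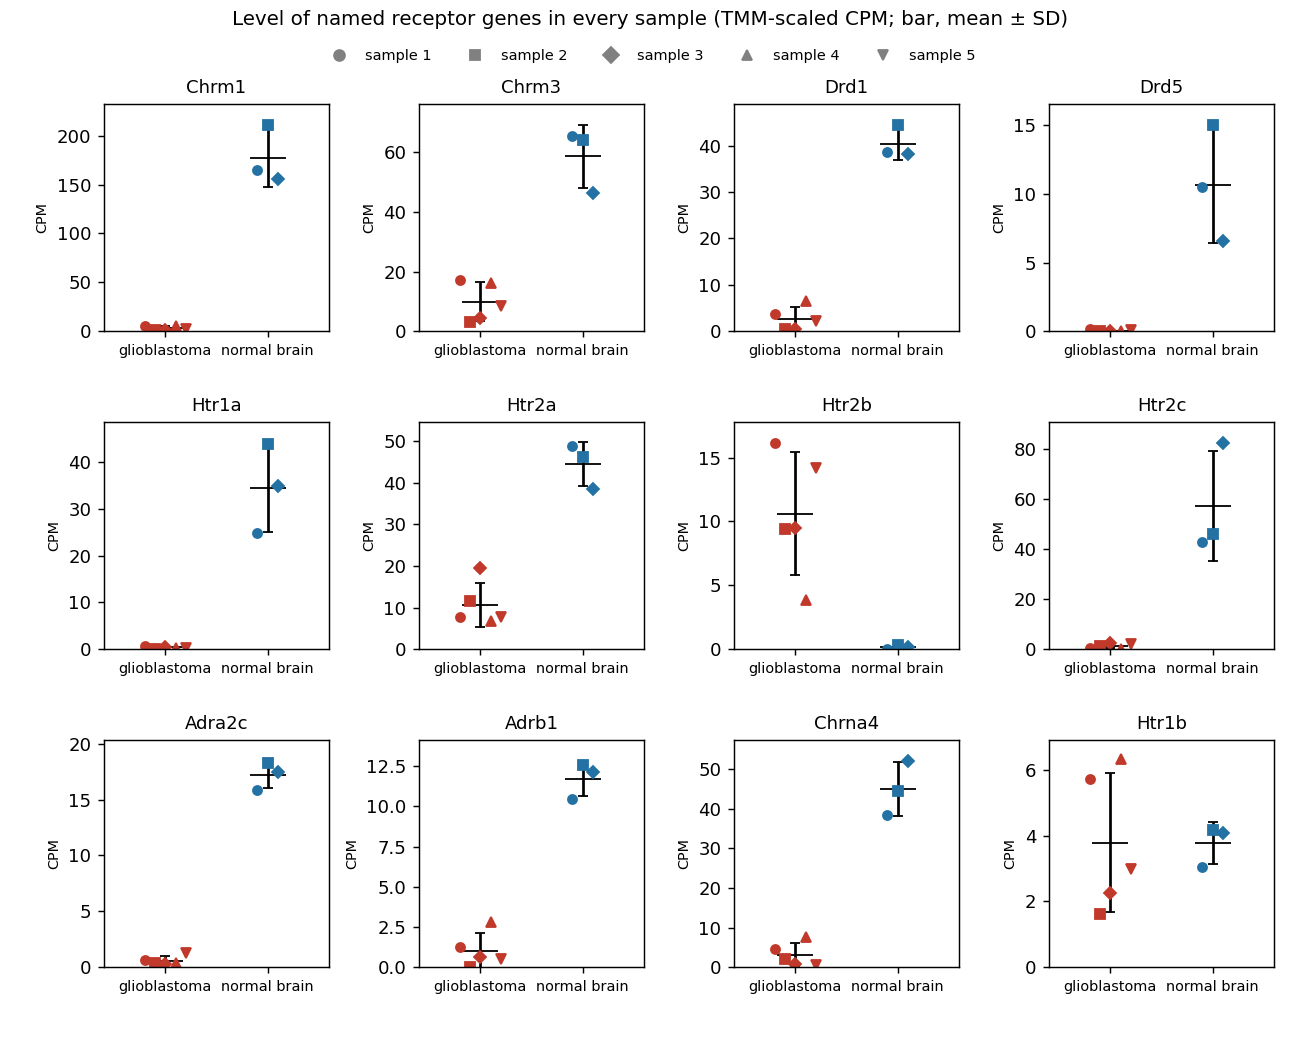
CPM of 12 receptor genes in every sample, each panel with its own axis from 0, glioblastoma left and normal brain right, with a marker shape per sample number and the mean ± SD as a cross-bar and error bar. The groups are apart in 11 panels and overlap in that of Htr1b, and Htr2b is the panel in which every tumour is above every brain.

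Of the alpha adrenergic receptors, 4 of the 5 tested fell. Adra2c, a Gi-coupled receptor of striatum and cortex, fell most. It had 0.620, 0.361, 0.252, 0.408 and 1.29 CPM in tumours 1 to 5, against 15.9, 18.3 and 17.4 CPM in brains 1 to 3. The tumours lay far below the brains, and the log2 fold change was -4.78 ± 0.43 (SE; edgeR, adjusted p = 1.89e-05). Adra1d, a Gq-coupled receptor, had 0.155, 1.08, 3.53, 1.75 and 1.45 CPM in tumours 1 to 5, against 20.3, 13.1 and 11.6 CPM in brains 1 to 3. Its tumours were spread widely, with tumour 1 lowest and tumour 3 highest, and the log2 fold change was -3.19 ± 0.58 (SE; edgeR, adjusted p = 0.00114). Adra1a, of the same class, had 4.34, 3.97, 1.76, 3.96 and 2.91 CPM in tumours 1 to 5, against 16.7, 15.3 and 11.3 CPM in brains 1 to 3. No tumour reached a brain, and the log2 fold change was -2.09 ± 0.30 (SE; edgeR, adjusted p = 0.000285). Adra2a, the main alpha-2 receptor of noradrenaline terminals and cortex, changed by -2.01 ± 0.54 (SE; edgeR, adjusted p = 0.00882).

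Adra1b, the remaining Gq-coupled alpha receptor, had 1.86, 6.68, 3.15, 5.24 and 2.26 CPM in tumours 1 to 5, against 12.5, 5.19 and 7.50 CPM in brains 1 to 3. Tumours 2 and 4 were above the lowest brain, so the groups overlapped. The log2 fold change was -1.13 ± 0.47 (SE; 95% interval -2.27 to 0.02; edgeR, adjusted p = 0.0555), and 5 of 20 other settings put it past the threshold as lower, with adjusted p from 0.0256 to 0.253 over all 20. Adra2b had 19 fragments in tumours and 6 in brains and was not tested. The family summed to 3.60 ± 0.736 FPKM in glioblastoma and 20.7 ± 2.15 FPKM in normal brain (SD, n = 5 and 3).

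Of the beta adrenergic receptors, which are Gs-coupled, Adrb1, the form that predominates in neurons, fell. It had 1.24, 0, 0.630, 2.80 and 0.485 CPM in tumours 1 to 5, against 10.5, 12.6 and 12.1 CPM in brains 1 to 3. The tumours were lower throughout, tumour 4 being the highest of them, and the log2 fold change was -3.37 ± 0.71 (SE; edgeR, adjusted p = 0.00249), or -4.26 without tumour 4. Adrb3, the receptor of fat tissue, had 5 fragments in tumours and 13 in brains.

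Ranked by FPKM, the order of the receptors differed between the groups. In glioblastoma the highest were Chrna1, at 65.6 ± 32.3 FPKM, Chrnb1, at 6.83 ± 3.60, and Htr2b, at 5.33 ± 2.40, followed by Htr1b, at 3.70 ± 2.04, and Htr2a, at 3.64 ± 1.81 (SD, n = 5). The last 4 of these lie within each other's spread. In normal brain the highest were Chrm1, at 27.9 ± 4.68 FPKM, Chrm3, at 18.7 ± 3.33, Chrnb2, at 17.0 ± 1.36, Chrna7, at 16.4 ± 2.40, and Htr2a, at 15.2 ± 1.77 (SD, n = 3), and neighbours after Chrm1 do not differ beyond their spread. All 49 genes together summed to 108, 124, 116, 44.1 and 125 FPKM in tumours 1 to 5, against 214, 235 and 215 FPKM in brains 1 to 3.

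The tumours differed among themselves more than the brains did. Over the 31 tested receptors the median SD of log2 CPM was 0.733 among tumours and 0.309 among brains. Several of these receptors had few fragments in the tumours, such as Chrm5 with 1, 1, 0, 3 and 1, and the part of counting error in the SD was not tested. The SD was larger among tumours for 26 of them (83.9%), beside 85.1% of all genes tested. For all genes tested the medians were 0.379 among tumours and 0.154 among brains. Tumours 1 and 4 held the highest 2 values among the tumours for Drd1, Chrm1, Chrm3, Chrna4, Adrb1 and Htr1b, a set picked out after the values were seen. Over all 31 tested receptors no tumour stood out as the highest: tumours 1 to 5 were the highest of the tumours for 7, 5, 6, 6 and 7 genes, and the lowest for 3, 10, 8, 11 and 2 genes. In tumours 1 and 4 the summed markers of oligodendrocyte precursors were the highest, at 938, 147, 258, 1692 and 385 CPM in tumours 1 to 5, against 232, 231 and 237 CPM in brains 1 to 3. Pdgfra alone gave 790 CPM of the sum in tumour 1 and 1338 CPM in tumour 4. Of these 6 markers 1 was called higher, 2 were called lower and 3 did not pass. General neuronal markers summed to 463, 897, 709.7, 329 and 523 CPM in tumours 1 to 5, against 6836, 5722 and 5754 CPM in brains 1 to 3. Most of the tumour sums came from Nefl and Stmn2, which did not pass the test. Of that list only Elavl4, which also did not pass, had its highest 2 tumour values in tumours 1 and 4. Elavl4 had 35.5, 4.69, 5.67, 106.6 and 8.48 CPM in tumours 1 to 5, against 136, 137 and 142 CPM in brains 1 to 3. Snap25, Syt1, Stmn2 and Nefl had their lowest tumour value in tumour 4. The part of any cell type in these differences among tumours was not tested.

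The genes that make, carry and break down the transmitters were mostly scarce or little changed. Of 8 genes of catecholamine synthesis and transport only Ddc, the decarboxylase shared by dopamine and serotonin synthesis, could be tested, and it fell; the log2 fold change was -2.43 ± 0.26 (SE; edgeR, adjusted p = 4.36e-05). Of the 3 serotonin genes, Tph1 and Tph2, which encode the hydroxylases of the first step, were tested and neither passed (log2 fold change 0.89 ± 0.58 and 0.96 ± 0.80, SE). Both monoamine oxidases passed in opposite directions. Maoa, which prefers serotonin and noradrenaline, had 105, 87.7, 86.2, 120.3 and 91.8 CPM in tumours 1 to 5, against 52.8, 47.3 and 58.2 CPM in brains 1 to 3, and the log2 fold change was 0.90 ± 0.16 (SE; edgeR, adjusted p = 0.000842). Maob had 13.3, 9.74, 12.1, 18.2 and 10.6 CPM in tumours 1 to 5, against 35.0, 30.7 and 31.2 CPM in brains 1 to 3, and the log2 fold change was -1.33 ± 0.21 (SE; edgeR, adjusted p = 0.000521). The groups overlapped for neither gene.

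On the acetylcholine side, Ache, the esterase of the synapse, had 4.65, 1.44, 1.64, 11.996 and 2.34 CPM in tumours 1 to 5, against 29.9, 28.4 and 40.5 CPM in brains 1 to 3. Every tumour was below every brain, and the log2 fold change was -2.84 ± 0.63 (SE; edgeR, adjusted p = 0.00347), or -3.70 without tumour 4. Slc5a7, the choline transporter of cholinergic terminals, had 4.65, 5.95, 1.76, 5.24 and 33.9 CPM in tumours 1 to 5, against 0.169, 1.01 and 1.36 CPM in brains 1 to 3. Tumour 5 was far above the rest, and the log2 fold change was 3.56 ± 1.14 (SE; edgeR, adjusted p = 0.0200). It was 2.33 without tumour 5, and the call was lost without brain 1 (adjusted p = 0.0673) or brain 2 (adjusted p = 0.0579). Chat and Slc18a3, the synthetic enzyme and vesicular transporter that define cholinergic neurons, were at or below 0.504 CPM in every library of both groups. Bche did not pass.

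Most of the genes for proteins that assist or modulate nicotinic receptors fell with the neuronal subunits: of 8 listed, 7 were tested, 6 fell and none was called higher. Tmem35a did not pass (log2 fold change -0.09 ± 0.49, SE). Rapsn was too scarce to be tested, with 33 fragments in tumours and 5 in brains, but every tumour was above every brain. Lypd6b and Lypd1, membrane-anchored relatives of the receptor-binding snake toxins, changed most, with log2 fold changes of -5.27 ± 0.32 and -5.01 ± 0.60 (SE; edgeR, adjusted p = 2.41e-06 and 9.75e-05). Of 18 tested G protein subunits, 11 fell and 5 rose, beside 33.9% of all genes tested that were lower and 37.1% that were higher. The subunits that fell most were Gnao1, the abundant Go protein of neurons, at -4.12 ± 0.28, and Gnal, the Golf protein through which Drd1 raises cyclic AMP in the striatum, at -3.93 ± 0.29 (SE). Those that rose most were Gna14, of the Gq class, at 3.82 ± 0.47, and Gnai3, of the Gi class, at 2.55 ± 0.15 (SE).

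Further down the pathway, 13 of 18 tested cyclases, phospholipases and effectors fell and 4 rose. Adcy1, a calcium-stimulated adenylyl cyclase of neurons, had 30.4, 27.6, 16.8, 20.1 and 22.3 CPM in tumours 1 to 5, against 1756, 1823 and 1273 CPM in brains 1 to 3, and the log2 fold change was -6.11 ± 0.25 (SE; edgeR, adjusted p = 4.21e-07). Ppp1r1b, the DARPP-32 phosphoprotein of striatal neurons, was between 0.310 and 0.630 CPM in the tumours and between 20.9 and 42.8 CPM in the brains, a log2 fold change of -6.02 ± 0.32 (SE). The largest rises were those of Adcy7, a cyclase known from blood cells, at 3.92 ± 0.72, and Plcb3, at 2.83 ± 0.36 (SE). Of 12 receptor kinases, arrestins and RGS proteins, which end receptor signalling, 8 fell and none rose, with Rgs4 at -4.11 ± 0.42 and Rgs14 at -4.07 ± 0.26 (SE). Over all 8 lists, 64 of 76 genes were tested, of which 41 were lower, 11 higher and 12 did not pass, beside the 33.9% and 37.1% of all genes tested that were lower and higher.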

How the data were processed

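The samples were 5 mouse glioblastomas and 3 normal mouse brains, grouped by source name and numbered within each group, without pairing. RNA was purified on columns with DNase before TruSeq RNA library preparation, per the labels' protocols. The submitters' processing notes name STAR 2.3.0e, Cuffdiff 2.1.1 and mm9. Annotation release, filters and strand setting: not given in the sources used here. No label states that samples are separate animals, so p-values measure the spread between these samples, which may be technical.

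The authors deposited estimated counts of fragments and FPKM values per RefSeq accession and library, per the file headers. The estimated counts of 30967 accessions were summed per gene symbol (NCBI RefSeq table of GRCm38, 30474 accessions; GENCODE, 178; none for 315) and rounded to whole numbers, giving 23523 features. Of the sums 97.8% were whole within 0.01, all 49 receptor genes among them, and FPKM values were summed likewise. Libraries held between 5490351 and 15564280 fragments, and every pair differed by more than sampling noise (lowest chi-square per degree of freedom 4.96). Of 50 reference symbols that the receptor rule matched, 1 had no entry in the table.

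edgeR 4.0.16 was used with TMM factors, its default filter, the robust quasi-likelihood F test and Benjamini-Hochberg adjustment over 14641 genes at 0.05. Standard errors come from the F statistic, and 95% intervals use 6 degrees of freedom. A ratio with 1 to 3 fragments in a group has an exact Poisson interval of that count, for counting error only. The fit was tested on simulated data. A rule named 22 receptors for values in every sample. They were the 3 of each family with the highest FPKM, the 2 with the largest fall and every one called higher. For Drd5, Chrna5 and Adrb3 a range or a total of fragments was given instead for some or all samples. Chrna4, Htr1b and Adra1b, with values in every sample, and Chrm2, with its change only, were added after their values were seen. In each list of other genes the 2 largest called changes in each direction were named. Some genes that these rules name are not reported here. The receptors and lists were chosen with earlier results of these data known. Alternatives were DESeq2 1.42.0, other scaling factors, other filters, limma 3.58.1 on log2(FPKM + 1) or log2(FPKM + 0.1), libraries left out, thinning to one depth, and leaving out genes with split fragments. R 4.3.3 and Python 3.11.15 were used, with pandas 2.3.3, numpy 2.4.6 and, for the figures, matplotlib 3.10.9.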

Additional observations from a re-analysis of the deposited data

Results flagged for a closer look

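Among 20 named receptor genes examined for a sample far from its group among the 5 tumours, 1 had such a sample, and chance gives about 1 in 20. It was Chrna1 in tumour 4, at 44.7 CPM, where the nearest other tumour had 290.4 CPM, a gap of 0.728 of the range of the tumours. Tumour 4 was also the lowest tumour for Chrnb1, at 2.91 CPM, and for Htr2b, at 3.84 CPM. It was the most deeply sequenced library, with 15564280 fragments.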

How the results depend on the processing

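The counts of receptors, of all genes and of listed genes called in each direction stayed within 1.5 times their value under all 20 alternatives. For receptor genes, 598 comparisons with an alternative kept their direction and their side of the threshold. Adra1b crossed it, lower at an adjusted p of 0.042 with DESeq2, 0.0427 with limma on log2(FPKM + 1), 0.0256 without tumour 2, 0.0363 without tumour 4 and 0.0468 without brain 2. The log2 fold change of Htr1b turned negative with limma on log2(FPKM + 1), with and without a filter (-0.11 each), with limma on log2(FPKM + 0.1) (-0.17), after thinning (-0.11) and without both brain 1 and tumour 4 (-0.38), and ranged from -0.25 to 0.21 when 1 library was left out. The cause was not tested. Without a filter, Adrb3, Chrna6, Chrnb3, Drd2 and Htr6 were also called lower. The log2 fold change of Chrna1 ranged from 5.23 to 7.74. Upper quartile factors moved the median of all genes to 0.18 and library size alone to 0.20, against 0.06. In a single library, 3 fragments are worth between 0.193 and 0.546 CPM, which limits the scarce receptors. Slc5a7 also lost its call with limma on log2(FPKM + 1), with and without a filter (adjusted p = 0.0737 and 0.0981), and without both brain 1 and tumour 4 (0.0593). No paired analysis was possible because the labels number no replicates.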

Other observations

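Of the 6 receptors with several RefSeq accessions, 4 had fragments that the authors' estimates divided between accessions in unlike shares in the 2 groups. One of the accessions of Chrm1 held 45.6% of its fragments in glioblastoma and 24.5% in normal brain. One of the 4 accessions of Adra1a held 39.4% in glioblastoma and 11.7% in normal brain, and 1 of the 3 of Adra1b held 21.3% in glioblastoma and 9.66% in normal brain. One of the accessions of Chrnb3 held 4.46% of 4 fragments in glioblastoma and 42.9% of 33 in normal brain. For Htr1d and Htr3a a single accession held between 98.4% and 99.9% in both groups. These splits are estimates, over few fragments in the tumours, and were not tested.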
